A study of Homo sapiens with 12 samples.

Results

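Transcripts of 38 iron-dependent 2-oxoglutarate oxygenases were followed in HEK293T cells, a transformed line of human embryonic kidney origin with the SV40 large T antigen. The genes were taken by symbol from a fixed list of JmjC histone demethylases, TET enzymes, the ALKBH family with FTO, collagen hydroxylases and other protein or lipid hydroxylases, and each of the 38 was found once among 56337 gene entries. The wild-type cells were grown in RPMI with 10% serum at 21% oxygen. There were 4 groups of 3 libraries. FAC+BafA1 cells had 24 h with 0.1 mg/ml of the iron salt ferric ammonium citrate (FAC) and then 24 h with 10 nM of bafilomycin A1 (BafA1, which blocks the proton pump of lysosomes). BafA1 cells had the same BafA1 treatment without FAC, FAC cells had the same FAC treatment without BafA1, and control cells had neither agent. Separate cultures are not stated for the numbered replicates, and p-values therefore describe the spread between these libraries of 1 cell line, which may be technical.

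Enzymes of this family hold a ferrous iron ion in the active site and use molecular oxygen and 2-oxoglutarate to hydroxylate a substrate, releasing carbon dioxide and succinate. On a methylated histone, DNA or RNA the hydroxylated methyl group is lost or further oxidised, and on procollagen the hydroxyl group on proline or lysine stabilises the triple helix and its crosslinks. Cells take up transferrin-bound iron through endosomes, and acid in that compartment frees the iron, so blocking acidification is a known way to limit the iron that reaches the cytosol. Several family members, among them KDM3A, KDM4B, KDM4C, P4HA1, P4HA2, PLOD1 and PLOD2, are known targets of hypoxia-inducible factors in human cells.

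Levels are given as FPKM, in which fragments are divided by transcript length and library depth. Log2 changes were taken of FPKM + 1, so the change of a low gene is understated. A change was called at a Benjamini-Hochberg adjusted p under 0.05 in a limma fit over the 13682 genes that averaged 1 FPKM or more, and folds are ratios of mean FPKM. The low values pointed to an estimated depth of 34.2 to 38.8 M fragments per library (M, 10 to the power of 6). Of 6 markers of HEK293T cells, 5 had a mean of at least 1 FPKM and PAX2 did not, while 0 of 4 keratinocyte, 1 of 4 blood and 1 of 5 fibroblast markers reached it. The libraries with and without FAC had been filled differently: 627 gene entries stood at 0 in the 6 libraries with FAC and at 1 FPKM or more in the 6 without it, or the reverse. The 38 enzymes, which were above 0 in each library, were not among them. In the comparisons of FAC+BafA1 with BafA1 and of FAC with control, FAC and this difference cannot be told apart. Each comparison of BafA1-treated with untreated cells stays within one side. Setting such a change with FAC against that without FAC crosses the sides again.

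All 38 enzymes passed the expression minimum. Mean levels in control cells ran from 3.18 FPKM for TET3 to 87.8 FPKM for ALKBH5, with a median of 15.7 FPKM beside 11.9 FPKM for all genes tested. The demethylase of N6-methyladenosine in RNA, ALKBH5, stood highest, followed by OGFOD1, a prolyl hydroxylase of a ribosomal protein, at 57.4 FPKM and ASPH, which hydroxylates aspartate and asparagine in EGF-like domains, at 57.4 FPKM. The TET enzymes, which oxidise 5-methylcytosine in DNA, were among the lowest, at 3.18 to 4.72 FPKM. In these bulk libraries the share of cells that express a gene and the level per cell cannot be told apart.

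The comparison of BafA1 with control asked what the block of lysosomal acidification did to these transcripts without added iron. After BafA1, 24 of the 38 enzymes rose (63.2%) and 9 fell (23.7%), while 29.5% of all genes tested rose and 37.6% fell. In all, 33 of 38 changed (86.8%), beside 67.1% of all genes tested, and for 34 the 2 groups did not overlap (68.7% of all genes tested). The median log2 change was 0.24 over the enzymes and -0.04 over all genes tested. The summed level of the 38 transcripts was 954 ± 4.63 FPKM in BafA1 cells and 768 ± 4.26 FPKM in control cells (SD, n = 3 each). A change of at least 0.5 log2 with no overlap between the groups was seen for 9 enzymes upward and 4 downward, beside 11.7% and 15.5% of all genes tested (27.2% together). The 9 were JMJD1C, KDM6B, KDM7A, KDM3A, P4HA1, KDM4A, KDM4C, KDM5B and OGFOD1, and the 4 were ALKBH7, PHYH, ALKBH4 and TET1.

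**Figure D1:**
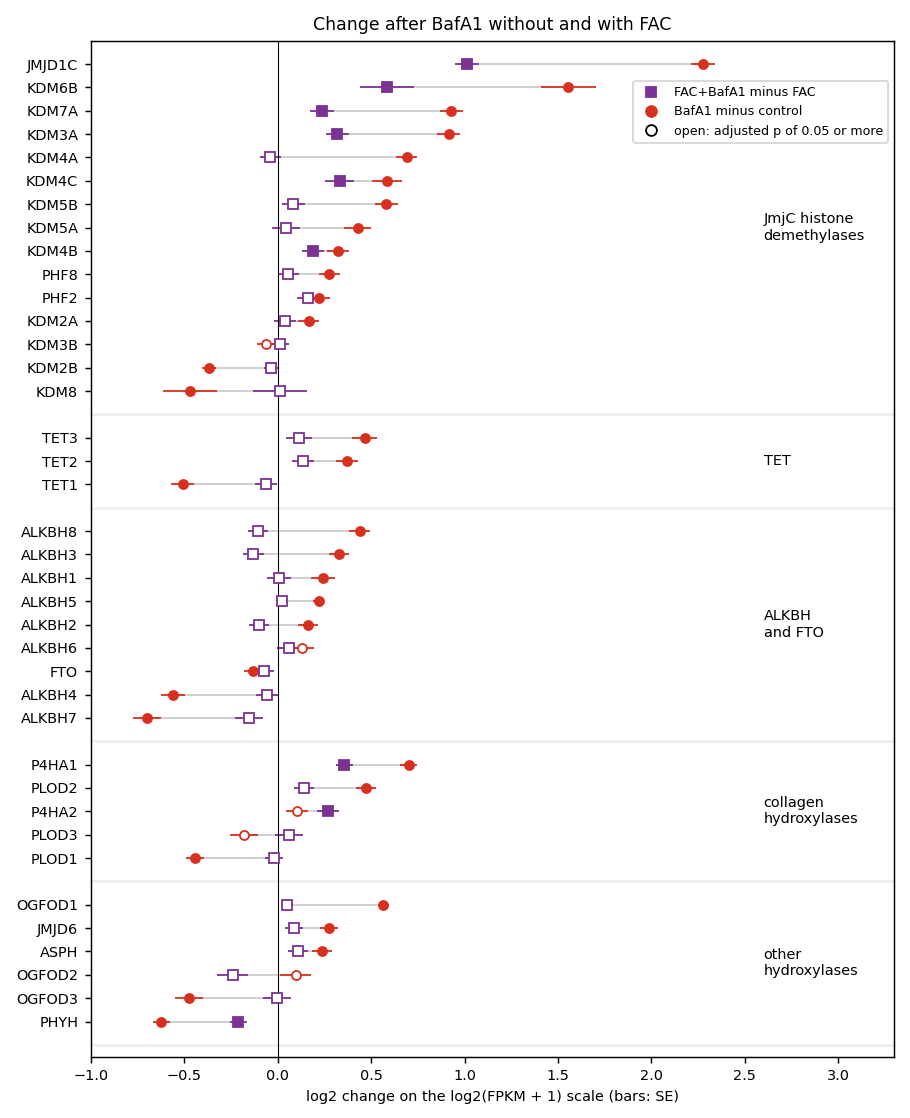
Log2 change on the log2(FPKM + 1) scale for each of the 38 enzymes, by role, for FAC+BafA1 minus FAC (squares) and BafA1 minus control (circles); bars are limma standard errors and open symbols did not reach an adjusted p under 0.05. JMJD1C had the largest BafA1 minus control change of the 38, 2.28, and its change with FAC was 1.01; the squares of all but OGFOD2 and P4HA2 lie nearer to 0 than their circles.

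Of the 15 JmjC histone demethylases 12 rose (80%) and 2 fell (13.3%), beside 29.5% and 37.6% of all genes tested. The median log2 change of the 15 was 0.43. Their summed level was 310 ± 5.38 FPKM in BafA1 cells and 206 ± 5.32 FPKM in control cells (SD, n = 3 each). JMJD1C, a KDM3-family protein (chromosome 10, 63167221 to 63521850 on GRCh38, minus strand), had 42.8, 44.5 and 43.8 FPKM in BafA1 cells, against 7.71, 8.54 and 8.43 FPKM in control cells. All 3 BafA1 libraries lay far above the 3 control libraries. The rise was 5.31-fold, with a log2 change of 2.28 ± 0.06 (SE, adjusted p = 5.48e-11 by limma). KDM6B, which removes methyl groups from H3K27 (chromosome 17, 7834217 to 7854796, plus strand), had 13.7, 11.2 and 11.5 FPKM in BafA1 cells, against 2.69, 3.79 and 3.97 FPKM in control cells. The groups were well apart although both spread by more than 1 FPKM, and the log2 change was 1.55 ± 0.15 (3.48-fold, adjusted p = 1.39e-06). KDM7A, which acts on dimethylated H3K9 and H3K27 (chromosome 7, 140084746 to 140176983, minus strand), had 11.4, 10.7 and 11.01 FPKM in BafA1 cells, against 5.71, 4.87 and 5.37 FPKM in control cells. Its 3 BafA1 values were again all higher, 2.07-fold in the mean, with a log2 change of 0.93 ± 0.06 (adjusted p = 8.39e-08).

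KDM3A, a demethylase of mono- and dimethylated H3K9 (chromosome 2, 86440647 to 86492716, plus strand), had 37.2, 33.9 and 33.0 FPKM in BafA1 cells, against 19.7, 16.6 and 17.5 FPKM in control cells. The groups did not overlap and the rise was 1.93-fold, log2 0.92 ± 0.06 (adjusted p = 7.84e-08). Its paralog KDM3B did not pass the test, at 26.2 ± 1.37 FPKM in BafA1 cells and 27.4 ± 1.10 FPKM in control cells (SD, n = 3 each, adjusted p = 0.276 by limma). The KDM4 enzymes KDM4A, KDM4B and KDM4C, which act on trimethylated H3K9 and H3K36, rose. KDM4A had 37.8, 41.8 and 37.9 FPKM in BafA1 cells, against 24.9, 22.6 and 24.1 FPKM in control cells, a log2 change of 0.69 ± 0.06 (adjusted p = 3.79e-07). KDM4C had 8.01, 7.59 and 6.88 FPKM in BafA1 cells, against 4.62, 4.58 and 4.76 FPKM in control cells, a log2 change of 0.59 ± 0.08 (adjusted p = 3.03e-05). For both the BafA1 libraries lay above the control libraries. Of the exonic bases of KDM4A, 40.2% lie in another gene that GENCODE places on the same strand. That gene had no entry in the deposited FPKM, so any reads from it cannot be told from those of KDM4A. KDM4B, at 9.68, 9.45 and 9.81 FPKM in BafA1 cells and 7.21, 7.58 and 7.80 FPKM in control cells, rose less, by a log2 change of 0.32 ± 0.06 (adjusted p = 0.000412).

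The KDM5 enzymes KDM5A and KDM5B, which demethylate H3K4, rose as well. KDM5B had 26.2, 26.1 and 28.7 FPKM in BafA1 cells, against 16.6, 18.4 and 18.1 FPKM in control cells, with no overlap and a log2 change of 0.58 ± 0.06 (adjusted p = 4.25e-06). KDM5A averaged 21.9 ± 0.461 FPKM in BafA1 cells and 16.1 ± 1.79 FPKM in control cells (SD, n = 3 each), a log2 change of 0.43. PHF8, PHF2 and KDM2A, which bind trimethylated H3K4 or CpG DNA through a second domain, rose by log2 changes of 0.28, 0.22 and 0.17. The KDM2A groups overlapped, and its call was lost under 5 of 20 alternative settings (adjusted p = 0.0535 to 0.0948 by limma). The 2 that fell were KDM2B, a H3K36 demethylase of the variant polycomb complex, with a log2 change of -0.37, and KDM8, with -0.47. KDM8 was low, at 2.87 FPKM in BafA1 cells and 4.36 FPKM in control cells. Of its exonic bases, 14.5% lie opposite an antisense transcript, which had only 0.0 to 0.2 FPKM. Whether the authors' counting used the strand is not given in the sources used here.

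**Figure D2:**
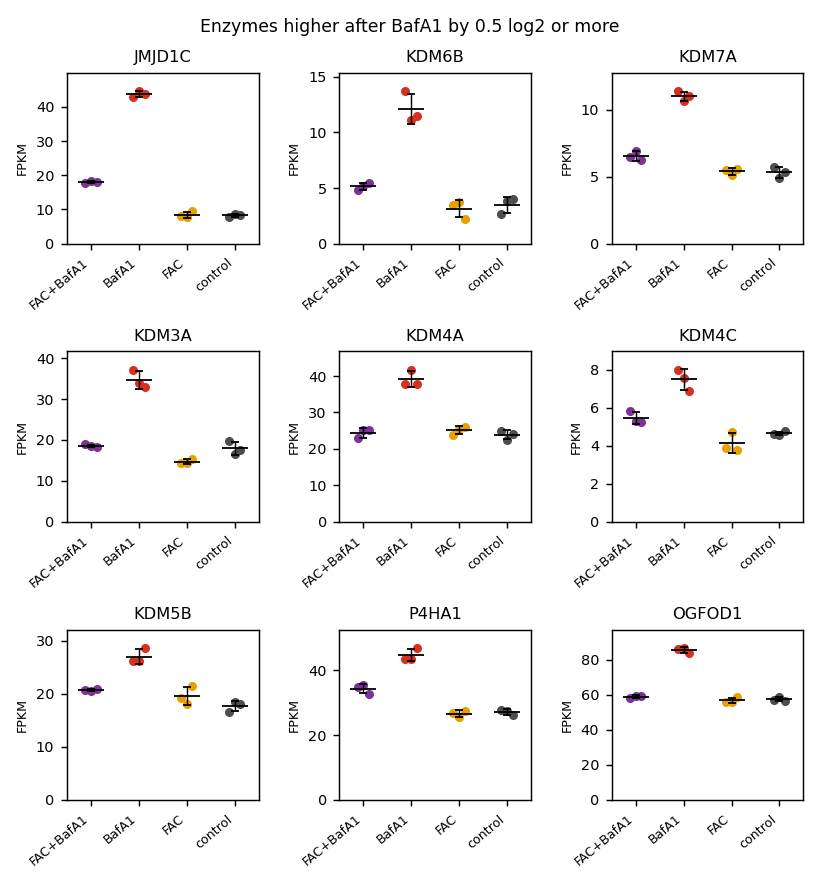
FPKM in each of the 12 libraries for enzymes that rose after BafA1; points are libraries, and the line and bars are the mean and SD of 3 libraries in FAC+BafA1, BafA1, FAC and control cells. In each panel the BafA1 points lie above the control points, and for JMJD1C the FAC+BafA1 points, 17.7 to 18.2 FPKM, lie between them.

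Promoters are shown for the 6 enzymes that rose by at least 0.5 log2 after BafA1 and were also called higher in FAC+BafA1 over FAC. Each is the 250 bases before the RefSeq start on GRCh38.p14, written 5′ to 3′ on the gene's strand. Capitals mark ACGTG or GCGTG on either strand, the core letters of the hypoxia response element, so CACGT and CACGC in capitals are minus-strand matches and CACGTG, the E-box, is a match on both strands. The regions are chr10:63269244-63269493 (minus) for JMJD1C, chr2:86441121-86441370 (plus) for KDM3A, chr9:6757723-6757972 (plus) for KDM4C, chr17:7833967-7834216 (plus) for KDM6B, chr7:140176984-140177233 (minus) for KDM7A and chr10:73096867-73097116 (minus) for P4HA1.
JMJD1C: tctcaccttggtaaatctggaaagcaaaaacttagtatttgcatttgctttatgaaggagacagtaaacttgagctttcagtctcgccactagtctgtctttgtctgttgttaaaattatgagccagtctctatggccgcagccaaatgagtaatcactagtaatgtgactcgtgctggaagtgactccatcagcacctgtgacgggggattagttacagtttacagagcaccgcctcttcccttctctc
KDM3A: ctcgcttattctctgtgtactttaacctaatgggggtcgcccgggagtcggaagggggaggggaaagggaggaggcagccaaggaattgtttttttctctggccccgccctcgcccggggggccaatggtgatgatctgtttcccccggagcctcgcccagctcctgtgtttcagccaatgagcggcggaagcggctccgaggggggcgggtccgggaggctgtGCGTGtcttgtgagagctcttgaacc
KDM4C: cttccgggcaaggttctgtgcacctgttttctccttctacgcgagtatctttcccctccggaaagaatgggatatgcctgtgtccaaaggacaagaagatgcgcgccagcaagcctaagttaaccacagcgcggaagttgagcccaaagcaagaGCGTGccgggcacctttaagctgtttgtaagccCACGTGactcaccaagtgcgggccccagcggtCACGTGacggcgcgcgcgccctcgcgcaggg
KDM6B: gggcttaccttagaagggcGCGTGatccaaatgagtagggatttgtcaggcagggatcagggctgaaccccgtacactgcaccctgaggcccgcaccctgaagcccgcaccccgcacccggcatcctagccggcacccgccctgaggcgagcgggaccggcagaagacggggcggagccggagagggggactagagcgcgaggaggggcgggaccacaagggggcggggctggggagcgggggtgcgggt
KDM7A: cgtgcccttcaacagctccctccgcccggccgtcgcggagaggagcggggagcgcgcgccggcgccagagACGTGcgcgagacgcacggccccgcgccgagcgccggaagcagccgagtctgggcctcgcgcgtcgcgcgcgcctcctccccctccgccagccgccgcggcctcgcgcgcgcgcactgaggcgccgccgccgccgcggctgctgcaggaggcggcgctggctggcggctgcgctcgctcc
P4HA1: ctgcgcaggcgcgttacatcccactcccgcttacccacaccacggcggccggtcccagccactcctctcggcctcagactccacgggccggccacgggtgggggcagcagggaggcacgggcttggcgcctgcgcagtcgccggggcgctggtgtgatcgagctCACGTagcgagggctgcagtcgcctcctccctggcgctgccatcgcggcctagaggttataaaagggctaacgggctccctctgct

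Counting -1 as the last base before the start, KDM4C held E-boxes at -63 and -31 and GCGTG at -96. KDM7A held ACGTG at -180, P4HA1 held it on the opposite strand at -86, KDM3A held GCGTG at -26 and KDM6B held it at -231. The JMJD1C window held neither motif. Its RefSeq start lies inside the span that GENCODE gives for the gene, as do those of KDM3A, KDM4C and P4HA1. The JMJD1C window reaches only 63269493, while the span of this minus-strand gene reaches 63521850. The bases before its outermost start were therefore not searched. The P4HA1 window reaches 73097116, past the span's end at 73096974. Other starts exist for these 4 genes, and FPKM per gene do not tell the starts apart. For KDM3A the first of its listed starts was used. Of 38 enzymes, 36 had a RefSeq promoter, and 23 of these (63.9%) held ACGTG or GCGTG on either strand, beside 59.1% of 9750 promoters of genes tested and 43.1% of 27305 promoters in all. The E-box CACGTG, which contains ACGTG, was in 11.1% of the enzymes' promoters and 9.16% of those of genes tested. The AP-1 site TGANTCA was in KDM4C alone of the 36 (2.78%, beside 3.35% of genes tested). The cAMP response element TGACGTCA and the ATF4 core TGATGNAA were in 0 of 36, beside 3.12% and 1.28% of genes tested. A match is a description of the letters and no measure of binding.

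**Figure D3:**
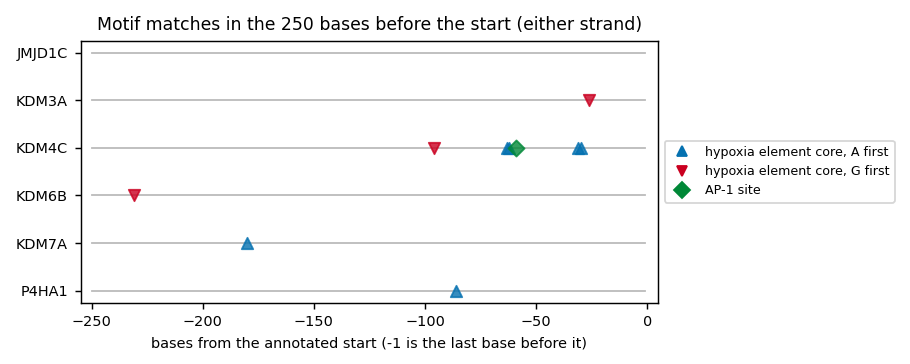
Positions of motif matches in the 250 bases before the RefSeq start of 6 enzymes, in bases from the start; triangles mark either form of the hypoxia response element core, on either strand, and the diamond the AP-1 site. KDM4C holds the most matches, from -96 to -30, and the JMJD1C line is empty.

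The TET enzymes moved in different directions. TET1 (chromosome 10, 68560337 to 68694487, plus strand) fell: it had 3.07, 3.01 and 2.97 FPKM in BafA1 cells, against 4.54, 4.67 and 4.94 FPKM in control cells. The groups did not overlap, and the log2 change was -0.51 ± 0.06 (adjusted p = 9.97e-06 by limma). At these levels and the estimated depths, approximately 984 to 1797 fragments stood behind the TET1 value of a library. TET2 had 5.02, 5.15 and 5.10 FPKM in BafA1 cells, against 3.58, 3.63 and 3.92 FPKM in control cells, a log2 change of 0.37 ± 0.06 (adjusted p = 9.74e-05). TET3 had 4.75, 4.75 and 4.80 FPKM in BafA1 cells, against 2.91, 3.36 and 3.27 FPKM in control cells, a log2 change of 0.47 ± 0.07 (adjusted p = 5.81e-05). Both rose with no overlap, so that the ratio of TET2 to TET1 was 1.69 ± 0.0456 in BafA1 cells and 0.787 ± 0.00831 in control cells (SD, n = 3 each, 2-sided exact permutation p = 0.1, adjusted p = 0.15 over 6 ratio tests). With 3 libraries against 3, 0.1 is the smallest p that this test can give. The sum over the 3 TET transcripts was 12.9 ± 0.0351 FPKM in BafA1 cells and 11.6 ± 0.552 FPKM in control cells.

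Among the ALKBH enzymes and FTO, 5 of 9 rose (55.6%) and 3 fell (33.3%), beside 29.5% and 37.6% of all genes tested. ALKBH5 had 102.4, 102.1 and 102.6 FPKM in BafA1 cells, against 86.2, 88.3 and 88.8 FPKM in control cells. All BafA1 libraries were higher, by a small log2 change of 0.22 ± 0.03 (1.17-fold, adjusted p = 2.07e-05). FTO, the other N6-methyladenosine demethylase, had 29.7, 32.8 and 28.5 FPKM in BafA1 cells, against 32.8, 32.4 and 34.8 FPKM in control cells. Its groups overlapped; the log2 change of -0.13 ± 0.05 passed (adjusted p = 0.0329) but was lost under 7 of 20 alternative settings, where the adjusted p ran from 0.0524 to 0.265. ALKBH8, a tRNA wobble uridine enzyme, averaged 16.9 ± 0.463 FPKM in BafA1 cells and 12.2 ± 0.447 FPKM in control cells (SD, n = 3 each), a log2 change of 0.44. ALKBH3, ALKBH1 and ALKBH2, of which the first and last repair alkylated DNA, rose by 0.33, 0.24 and 0.16; the call for ALKBH2 was lost without control replicate 3 or without BafA1 replicate 1 (adjusted p = 0.0654 and 0.0788 by limma). ALKBH6 did not pass (log2 0.13, adjusted p = 0.0984).

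Besides FTO, ALKBH7 and ALKBH4 fell. ALKBH7, a mitochondrial member (chromosome 19, 6372794 to 6375250, plus strand), had 8.39, 9.54 and 9.01 FPKM in BafA1 cells, against 13.9, 17.3 and 14.5 FPKM in control cells. No libraries overlapped, and the log2 change was -0.70 ± 0.07 (adjusted p = 3.84e-06). ALKBH4, described as a demethylase of actin (chromosome 7, 102456238 to 102464863, minus strand), had 7.62, 7.35 and 7.41 FPKM in BafA1 cells, against 11.5, 10.7 and 12.3 FPKM in control cells. The log2 change was -0.56 ± 0.06 (adjusted p = 6.99e-06) with no overlap. Of its exonic bases, 25.6% lie opposite ORAI2, which had 3.41 to 6.41 FPKM, so without a stated strand setting its reads may be shared.

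**Figure D4:**
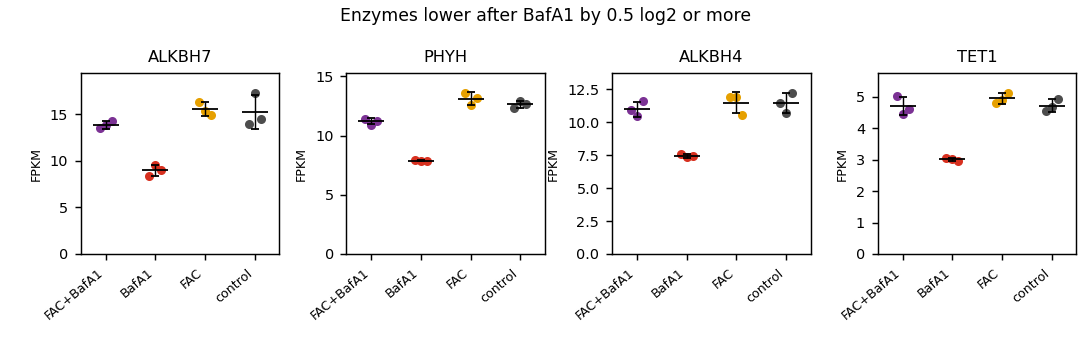
FPKM in each of the 12 libraries for enzymes that fell after BafA1; points are libraries, and the line and bars are the mean and SD of 3 libraries in FAC+BafA1, BafA1, FAC and control cells. The BafA1 points are the lowest of the 4 groups in each panel, for PHYH at 7.83 to 7.91 FPKM.

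Of the 5 collagen hydroxylases 2 rose (40%) and 1 fell (20%) after BafA1, beside 29.5% and 37.6% of all genes tested. P4HA1, a catalytic subunit of collagen prolyl hydroxylase (chromosome 10, 73007217 to 73096974, minus strand), had 43.6, 43.5 and 46.8 FPKM in BafA1 cells, against 27.7, 27.5 and 26.1 FPKM in control cells. The groups were clearly apart, and the rise was 1.65-fold, log2 0.70 ± 0.05 (adjusted p = 5.25e-08). P4HA2, the alternative catalytic subunit, had 11.6, 12.1 and 11.6 FPKM in BafA1 cells, against 11.1, 10.9 and 10.7 FPKM in control cells. Its values did not overlap, but the log2 change of 0.10 ± 0.06 did not pass (adjusted p = 0.147). The ratio of P4HA1 to P4HA2 was 3.79 ± 0.220 in BafA1 cells and 2.48 ± 0.0495 in control cells (SD, n = 3 each, exact permutation p = 0.1).

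The lysyl hydroxylases prepare collagen for glycosylation and crosslinks. PLOD2, which acts on the telopeptides, had 48.5, 50.3 and 52.1 FPKM in BafA1 cells, against 38.0, 34.1 and 36.0 FPKM in control cells, a log2 change of 0.47 ± 0.05 (adjusted p = 8.44e-06). PLOD1, which acts on the helix, had 22.6, 20.7 and 22.7 FPKM in BafA1 cells, against 28.8, 31.2 and 30.6 FPKM in control cells, a log2 change of -0.44 ± 0.05 (adjusted p = 5.80e-06). Neither gene had overlapping groups, and the ratio of PLOD2 to PLOD1 was 2.29 ± 0.147 in BafA1 cells and 1.20 ± 0.114 in control cells (SD, n = 3 each, exact permutation p = 0.1). PLOD3 averaged 17.7 ± 1.89 FPKM in BafA1 cells and 20.1 ± 0.782 FPKM in control cells (SD, n = 3 each) and did not pass (adjusted p = 0.0538 by limma); it was called lower under 5 of 20 alternative settings.

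**Figure D5:**
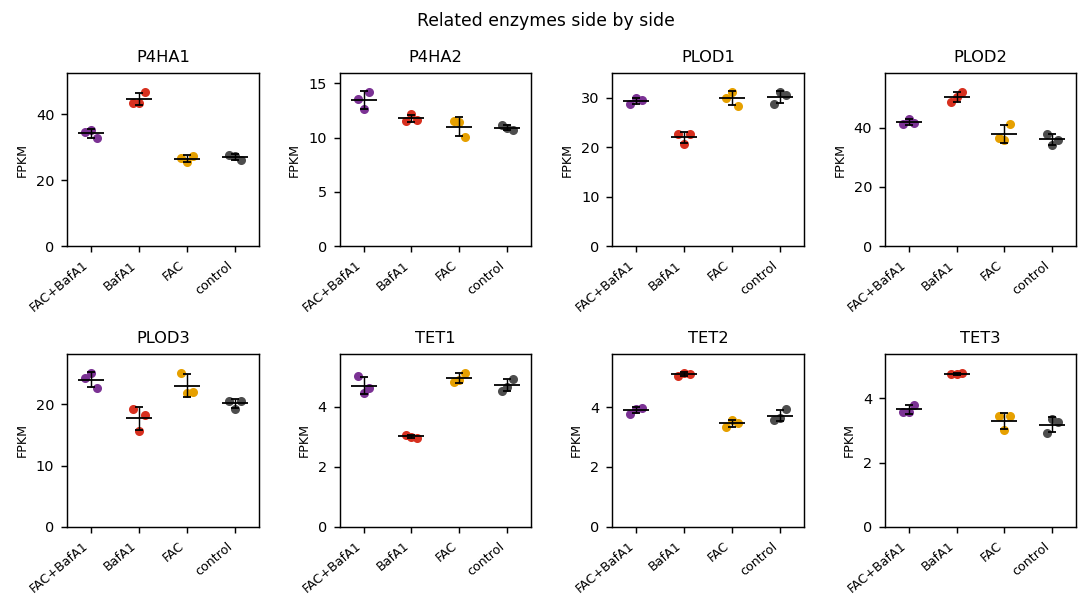
FPKM of the prolyl hydroxylases P4HA1 and P4HA2, the lysyl hydroxylases PLOD1 to PLOD3 and the TET enzymes in each of the 12 libraries; points are libraries, and the line and bars are the mean and SD of 3 libraries in FAC+BafA1, BafA1, FAC and control cells. The BafA1 points lie apart from the other groups for PLOD1 and TET1 on the low side and for P4HA1, PLOD2, TET2 and TET3 on the high side; for P4HA2 the FAC+BafA1 points, 12.6 to 14.2 FPKM, are the highest.

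Of the other hydroxylases, OGFOD1 rose and PHYH and OGFOD3 fell. OGFOD1 had 86.1, 86.6 and 83.4 FPKM in BafA1 cells, against 57.0, 58.8 and 56.4 FPKM in control cells. The groups were narrow and far apart, with a log2 change of 0.57 ± 0.03 (1.49-fold, adjusted p = 8.96e-09). PHYH, the peroxisomal enzyme that starts the breakdown of phytanic acid (chromosome 10, 13277796 to 13302412, minus strand), had 7.91, 7.85 and 7.83 FPKM in BafA1 cells, against 12.3, 12.9 and 12.7 FPKM in control cells. It fell with no overlap, by a log2 change of -0.62 ± 0.04 (adjusted p = 1.18e-07). OGFOD3 had 8.64, 9.36 and 9.52 FPKM in BafA1 cells, against 12.5, 14.7 and 12.3 FPKM in control cells, with no overlap and a log2 change of -0.47 ± 0.07 (adjusted p = 0.000118). JMJD6, a lysyl hydroxylase of splicing factors, and ASPH rose by 0.27 and 0.23. OGFOD2 did not pass (log2 0.10, adjusted p = 0.334 by limma). Of its exonic bases, 67.6% lie in another annotated gene on the same strand, which had 0.0 to 0.89 FPKM. A further overlap of 36.1% lies opposite ABCB9, which had 1.70 to 3.95 FPKM, so the assignment of OGFOD2 reads is uncertain.

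FAC without BafA1 changed 1 of the 38 enzymes. This was 2.63% of them, lower in FAC cells, beside 9.56% of all genes tested that changed and 4.84% that fell, and the log2 changes ran from -0.27 to 0.18 with a median of 0.02. The FAC and control libraries did not overlap for 2 enzymes, beside 20.3% of all genes tested. These shares over all genes include entries filled on only one FAC side, with log2 changes from -9.585 to 9.61. The 38 enzymes were not among such entries, so the shares are not like for like. Among genes averaging at least 5 FPKM, 402 of 9655 were called. The gene called was KDM3A, which had 14.4, 14.3 and 15.4 FPKM in FAC cells, against 19.7, 16.6 and 17.5 FPKM in control cells. Every FAC library was below every control library, with a log2 change of -0.27 ± 0.06 (adjusted p = 0.0125). The call was lost with the 2 groups fitted alone, without control replicate 1, without FAC replicate 1 and without FAC replicate 2 (adjusted p = 0.0501 to 0.0577 by limma). No enzyme was called higher by limma, and at an unadjusted p under 0.05 there was 1 higher and 1 lower.

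In cells that had been given iron first, BafA1 changed fewer of the enzymes. In FAC+BafA1 over FAC, 8 of 38 rose and 1 fell, 9 in all (23.7%), beside 19.3% of all genes tested, of which 9.76% rose and 9.49% fell. For 15 enzymes the 2 groups did not overlap, beside 36.9% of all genes tested. The median log2 change was 0.05 over the enzymes and 0.00 over all genes tested, and the summed level was 811 ± 6.67 FPKM in FAC+BafA1 cells and 777 ± 1.58 FPKM in FAC cells (SD, n = 3 each). JMJD1C had 17.7, 18.2 and 18.0 FPKM in FAC+BafA1 cells, against 8.14, 7.64 and 9.49 FPKM in FAC cells. Its groups stayed well apart, with a log2 change of 1.01 ± 0.06 (2.13-fold, adjusted p = 9.81e-07). KDM6B had 4.79, 5.16 and 5.48 FPKM in FAC+BafA1 cells, against 3.44, 3.75 and 2.25 FPKM in FAC cells, a log2 change of 0.58 ± 0.15 (adjusted p = 0.0159). P4HA1 had 34.7, 35.4 and 32.7 FPKM in FAC+BafA1 cells, against 26.8, 25.4 and 27.4 FPKM in FAC cells, a log2 change of 0.36 ± 0.05 (adjusted p = 0.000255). Neither gene's groups overlapped.

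KDM4C, KDM3A and KDM7A rose by log2 changes of 0.33, 0.32 and 0.24, and KDM4B by 0.19 (adjusted p = 0.0116, 0.00419, 0.0221 and 0.0412 by limma). KDM3A had 18.9, 18.5 and 18.4 FPKM in FAC+BafA1 cells, against 14.4, 14.3 and 15.4 FPKM in FAC cells. KDM7A had 6.44, 6.94 and 6.26 FPKM in FAC+BafA1 cells, against 5.48, 5.11 and 5.61 FPKM in FAC cells. For both, the FAC+BafA1 libraries lay above the FAC libraries with no overlap. P4HA2, which had not passed without iron, had 13.5, 12.6 and 14.2 FPKM in FAC+BafA1 cells, against 11.6, 11.4 and 10.1 FPKM in FAC cells, a log2 change of 0.27 ± 0.06 (adjusted p = 0.0084). Its change with FAC was not shown to differ from that without FAC (interaction log2 0.17 ± 0.08, adjusted p = 0.121). PHYH was the 1 that fell, with 11.4, 10.9 and 11.3 FPKM in FAC+BafA1 cells, against 13.6, 12.5 and 13.2 FPKM in FAC cells, a log2 change of -0.21 ± 0.04 (adjusted p = 0.00639). Fitted with the 2 groups alone, 4 enzymes were called: the calls of KDM4B, KDM4C, KDM6B, KDM7A and P4HA2 were lost there (adjusted p = 0.0576 to 0.13 by limma). KDM4B was lost under 13 of 20 alternative settings, KDM7A under 4, KDM6B under 3 and KDM4C under 2, in some by leaving out a single library.

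Whether the change after BafA1 differed with iron was tested as the interaction, (FAC+BafA1 minus FAC) minus (BafA1 minus control). Each change was measured within one side, but the interaction sets the sides against each other. FAC and the difference in how the sides were filled therefore cannot be told apart in it. The interaction was called for 27 of 38 enzymes (71.1%), beside 50.1% of all genes tested: 20 negative (20.6% of all genes) and 7 positive (29.5%). Of the 33 enzymes that changed after BafA1 without iron, 26 (78.8%) had a called interaction of the sign opposite to that change. For 0 it had the same sign, and 7 did not pass. Among all genes called without iron, 6440 of 9180 (70.2%) had the opposite sign. This sign covers a smaller change with iron and also a reversed one. Both sets were chosen by the BafA1 minus control change, which the interaction subtracts, so the choice itself favours the opposite sign. The largest negative interaction was that of JMJD1C, at -1.26 ± 0.09 (adjusted p = 5.75e-07 by limma), followed by KDM6B at -0.97 ± 0.21 (adjusted p = 0.0021) and KDM4A at -0.73 ± 0.08 (adjusted p = 1.47e-05). KDM4A had 22.9, 25.1 and 25.3 FPKM in FAC+BafA1 cells, against 23.9, 25.6 and 25.9 FPKM in FAC cells, so that its groups overlapped with iron. The largest positive values were those of ALKBH7 (0.54 ± 0.10, adjusted p = 0.00102), ALKBH4 (0.50 ± 0.09, adjusted p = 0.000591) and OGFOD3 (0.47 ± 0.11, adjusted p = 0.00286). ALKBH7 had 13.5, 13.8 and 14.2 FPKM in FAC+BafA1 cells, against 16.3, 15.3 and 14.9 FPKM in FAC cells. ALKBH4 had 10.9, 10.5 and 11.6 FPKM in FAC+BafA1 cells, against 11.9, 11.9 and 10.5 FPKM in FAC cells. OGFOD3 had 13.7, 12.2 and 12.5 FPKM in FAC+BafA1 cells, against 13.8, 12.6 and 12.1 FPKM in FAC cells. With iron the groups of ALKBH4 and OGFOD3 overlapped, and none of the 3 genes passed the test of FAC+BafA1 over FAC (adjusted p = 0.171 for ALKBH7, 0.602 for ALKBH4 and 1 for OGFOD3 by limma). TET1 followed at 0.45 ± 0.08 (adjusted p = 0.00095), with 5.02, 4.46 and 4.63 FPKM in FAC+BafA1 cells, against 4.82, 4.90 and 5.14 FPKM in FAC cells.

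Over the 13 enzymes with changes of at least 0.5 log2 after BafA1, the log2 change with iron was a median of 25.5% of that without it. It ran from -5.88% for KDM4A to 56.7% for KDM4C, with 44.5% for JMJD1C, 50.7% for P4HA1, 34.8% for KDM3A and 9.01% for OGFOD1. The 13 were chosen by the size of the change without iron, which favours a low percentage. All genes tested also changed less: their median absolute log2 change after BafA1 was 0.31 without iron and 0.10 with it. Over the 38 enzymes these medians were 0.43 and 0.09. With iron, the ratio of P4HA1 to P4HA2 was 2.56 ± 0.254 in FAC+BafA1 cells and 2.42 ± 0.269 in FAC cells, and that of PLOD2 to PLOD1 was 1.42 ± 0.0207 and 1.27 ± 0.158 in the same groups (SD, n = 3 each, exact permutation p = 0.6 and 0.4). The ratio of TET2 to TET1 was 0.831 ± 0.0686 in FAC+BafA1 cells and 0.698 ± 0.0297 in FAC cells (SD, n = 3 each, exact permutation p = 0.1), and these groups did not overlap, as without iron. The 7 enzymes called higher with and without iron were JMJD1C, KDM3A, KDM4B, KDM4C, KDM6B, KDM7A and P4HA1, the 1 called lower in both was PHYH, and 0 were called in opposite directions.

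Set directly against BafA1, FAC+BafA1 cells had 21 of the enzymes lower and 9 higher, 30 of 38 (78.9%), beside 67.9% of all genes tested, 29.1% lower and 38.8% higher. For 32 enzymes the 2 groups did not overlap, beside 71.2% of all genes tested. The lowest was JMJD1C, with 17.7, 18.2 and 18.0 FPKM in FAC+BafA1 cells, against 42.8, 44.5 and 43.8 FPKM in BafA1 cells, a log2 change of -1.24 ± 0.06 (adjusted p = 5.00e-09). KDM6B had 4.79, 5.16 and 5.48 FPKM in FAC+BafA1 cells, against 13.7, 11.2 and 11.5 FPKM in BafA1 cells, a log2 change of -1.09 ± 0.15 (adjusted p = 3.04e-05). KDM3A had 18.9, 18.5 and 18.4 FPKM in FAC+BafA1 cells, against 37.2, 33.9 and 33.0 FPKM in BafA1 cells, a log2 change of -0.86 ± 0.06 (adjusted p = 1.08e-07). For each of these demethylases every FAC+BafA1 library was below every BafA1 library. ALKBH7 was higher, with 13.5, 13.8 and 14.2 FPKM in FAC+BafA1 cells, against 8.39, 9.54 and 9.01 FPKM in BafA1 cells, a log2 change of 0.57 ± 0.07 (adjusted p = 2.09e-05). TET1 had 5.02, 4.46 and 4.63 FPKM in FAC+BafA1 cells, against 3.07, 3.01 and 2.97 FPKM in BafA1 cells, a log2 change of 0.50 ± 0.06 (adjusted p = 1.03e-05). ALKBH4 had 10.9, 10.5 and 11.6 FPKM in FAC+BafA1 cells, against 7.62, 7.35 and 7.41 FPKM in BafA1 cells, a log2 change of 0.50 ± 0.06 (adjusted p = 1.73e-05). The groups of ALKBH7, TET1 and ALKBH4 did not overlap. This comparison shares its BafA1 libraries with that of BafA1 over control and crosses the FAC sides.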

How the data were processed

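RNA sequencing libraries were made with a stranded kit for polyadenylated RNA, per the labels' protocols, from 4 groups of 3 libraries. The authors deposited FPKM for 56340 gene entries; STAR, RSEM and GRCh38 are named in the submitters' processing notes, while versions, annotation, filters and strand setting were not given in the sources used here. Dropping 3 repeats of another ID left 56337. FPKM are not counts, and no count test was made. Depth was estimated from the steps between low values of genes with 1 transcript. The fit to these steps was loose: its mean cosine, 1 for a perfect fit, ran from 0.0884 (control 3) to 0.269 (FAC 3). The depths and fragment numbers are therefore approximate. Precision rests on the spread between libraries. The deposited FPKM were transformed here to log2(FPKM + 1) without rescaling, genes averaging 1 FPKM or more were kept, and limma 3.58.1 (R 4.3.3) was fitted to the 12 libraries with a mean per group and a trend in the prior variance, with Benjamini-Hochberg adjustment over 13682 genes and calls at an adjusted p under 0.05. The fit was run on simulated data with independent noise in which few genes changed, so that run does not measure its performance here. The alternatives were another pseudocount, other filters, other scalings, no trend, a replicate block, fits of 2 groups and leaving out each library.

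The members, lists and settings were chosen with earlier results of these data known, so patterns shown by the earlier work are not independent support. Every member is accounted for. Values per library and full statistics were given to members called after BafA1 with an absolute log2 change of at least 0.5 and no overlap, to the 3 highest and 3 lowest called members of each comparison, and to KDM3A, KDM4B, KDM6B, P4HA1, P4HA2, PLOD1, PLOD2, TET1, TET2, TET3, FTO and ALKBH5; genes of other lists were named if among the 2 highest or 2 lowest called after BafA1, except 1 that is not reported here. Of the 13 large changes, promoters are shown for the 6 also called higher in FAC+BafA1 over FAC, a choice made after the values were seen. Gene positions are from GENCODE on GRCh38, and promoters from RefSeq on GRCh38.p14. The labels number the replicates. Same-numbered libraries deviated together with a correlation of -0.0736 to 0.138, over 0.1 in 1 of 18 pairs. No clear shared deviation by number was seen, and the main fit did not pair the samples. Whether same-numbered libraries were prepared together cannot be told from this.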

Additional observations from a re-analysis of the deposited data

Results flagged for a closer look

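By limma's interaction test at an adjusted p under 0.05, the change after BafA1 differed with and without FAC for 27 enzymes. This was 71.1% of them, beside 50.1% of all genes tested. FAC and the difference in how the libraries with and without FAC were filled cannot be told apart in this test. The interaction, the change with FAC minus the change without it on the log2 scale, was negative for 20 (52.6%, beside 20.6% of all genes tested). Among JmjC demethylases it was -1.26 for JMJD1C, -0.97 for KDM6B, -0.73 for KDM4A, -0.69 for KDM7A, -0.60 for KDM3A, -0.50 for KDM5B, -0.38 for KDM5A and -0.22 for PHF8. Among ALKBH enzymes it was -0.54 for ALKBH8, -0.46 for ALKBH3, -0.26 for ALKBH2, -0.24 for ALKBH1 and -0.20 for ALKBH5. It was -0.35 for TET3, -0.24 for TET2, -0.35 for P4HA1, -0.33 for PLOD2, -0.51 for OGFOD1, -0.34 for OGFOD2 and -0.19 for JMJD6. The reads of OGFOD2 and KDM4A are of uncertain assignment, with 67.6% and 40.2% of their exonic bases in another annotated gene on the same strand and, for OGFOD2, 36.1% opposite another gene. The gene on the strand of KDM4A had no entry in the deposited FPKM, and that on the strand of OGFOD2 had 0.0 to 0.89 FPKM.

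The interaction was positive for 7 (18.4%, beside 29.5% of all genes tested). All 7 had fallen after BafA1 without FAC, a change that the interaction subtracts, which favours the opposite sign. The values were 0.54 for ALKBH7, 0.50 for ALKBH4, 0.47 for OGFOD3, 0.45 for TET1, 0.42 for PLOD1, 0.41 for PHYH and 0.33 for KDM2B. The calls of ALKBH1, JMJD6, OGFOD2, PHF8 and TET2 were lost under 13, 12, 8, 8 and 6 alternative settings, with adjusted p-values of 0.0509 to 0.111.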

How the results depend on the processing

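No alternative reversed the direction of a called change. Of the settings that were not refits without a library, the count of all genes called for FAC against control was 402 at a mean of at least 5 FPKM and 4486 with no filter on low values, beside 1308. The count of enzymes called was 0 for FAC against control with the 2 groups fitted alone, beside 1, and 4 for FAC+BafA1 against FAC with the 2 groups fitted alone, beside 9; that fit has fewer samples for the spread. No fit with 2 groups exists for the interaction. Under quantile normalization 77.8% of the 9 enzymes called for FAC+BafA1 against FAC were higher, beside 88.9%.

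Without 1 library, the enzymes called numbered 31 to 34 for BafA1 against control, 0 to 1 for FAC against control, 27 to 32 for FAC+BafA1 against BafA1, 7 to 10 for FAC+BafA1 against FAC and 22 to 27 for the interaction. The same counts over all genes were 8643 to 9199, 1239 to 1329, 8683 to 9376, 1840 to 2646 and 6371 to 6615. With a replicate block, FTO (BafA1 against control, adjusted p = 0.0524 by limma), KDM4B (FAC+BafA1 against FAC, 0.0709) and ALKBH1 (interaction, 0.0728) were no longer called, PLOD3 (BafA1 against control, 0.0364) and KDM8 (interaction, 0.0483) were newly called, and no other call of an enzyme changed. Depth is estimated, so no counting interval can be given for a single FPKM.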

Other observations

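Further lists were read against the 67.1% of all genes tested that changed after BafA1. Of 26 other 2-oxoglutarate oxygenases, 20 passed the expression minimum, 5 rose and 5 fell (50% changed), with a median log2 change of -0.01. KDM6A, a H3K27 demethylase, averaged 28.4 FPKM in BafA1 cells and 14.6 FPKM in control cells (log2 0.92), and EGLN3, a prolyl hydroxylase of hypoxia-inducible factors, averaged 3.34 FPKM in BafA1 cells and 6.87 FPKM in control cells (log2 -0.87). TYW5 rose by 0.39 and JMJD4 fell by 0.42. Of 27 enzymes tested that make or use 2-oxoglutarate or succinate, 5 rose and 17 fell (81.5% changed). IDH1, the cytosolic isocitrate dehydrogenase that makes 2-oxoglutarate, averaged 14.7 ± 0.493 FPKM in BafA1 cells and 53.5 ± 1.63 FPKM in control cells (SD, n = 3 each), a log2 change of -1.80, and OGDH fell by 0.95. BCAT1, which moves amino groups from branched-chain amino acids to 2-oxoglutarate, rose by 0.80. In FAC+BafA1 against FAC, 12 of the 27 fell and 0 rose by limma, beside 9.49% and 9.76% of all genes tested. At an unadjusted p under 0.05, 0 of the 27 were higher and 15 lower. IDH1 averaged 35.4 FPKM in FAC+BafA1 cells and 55.7 FPKM in FAC cells.

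Of 21 collagen chains and folding partners tested, 2 rose and 15 fell after BafA1 (81% changed), with a median log2 change of -0.56. P4HB, the partner subunit of P4HA1 and P4HA2, averaged 519 FPKM in BafA1 cells and 350 FPKM in control cells (log2 0.57), and FKBP10 rose by 0.21. COL4A2, a basement membrane chain, averaged 4.36 FPKM in BafA1 cells and 15.8 FPKM in control cells (log2 -1.65), and COL18A1 fell by 1.57. Among 22 genes of DNA and RNA methylation 9 rose and 5 fell (63.6% changed), with RBM15 at 1.16, CBLL1 at 0.67, DNMT3B at -0.97 and UHRF1 at -0.67. Among 30 histone methyltransferases and flavin demethylases 15 rose and 4 fell (63.3% changed), with KMT2A at 0.87, NSD3 at 0.83, EHMT2 at -0.63 and KDM1B at -0.57.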
